A study of Mus musculus with 57 samples.

Results

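The genes described here carry necroptosis, pyroptosis and death receptor signalling, the regulated forms of cell death that run outside or upstream of classical apoptosis. Zbp1, Ripk3 and Mlkl belong to necroptosis, Nlrp3, Casp1, Casp4 and Gsdmd to pyroptosis, and Fas, Tnfrsf10b and Casp8 to the death receptors. They were chosen by name, and all 10 were found, by Ensembl identifier, among the 54307 genes of a table of estimated counts from 57 mouse livers. Each of the 7 compounds of the study was set against the vehicle given by the same route and, in a repeat, against all 17 vehicle mice.

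The mice were male, wild-type and of the strain C57BL/6JJcl, 6 weeks old before 1 week of acclimatisation. After 12 h without food each received a compound or its vehicle, and 24 h later the liver was perfused and a piece from the outer part of its left lateral lobe was taken for sequencing of polyadenylated RNA. By gavage, 4 mice received alpha-naphthyl isothiocyanate (ANIT), 6 acetaminophen (APAP), 7 4,4'-methylene dianiline (MDA) and 5 thioacetamide (TAA), against 13 mice given 0.5% methylcellulose (Ctrl). By intraperitoneal injection, 7 mice received carbon tetrachloride (CCl4) and 4 galactosamine (GAL), against 2 mice given 0.9% saline (CIP). Concanavalin A (ConA), a plant lectin that activates T cells, was injected into the tail vein of 7 mice, against 2 mice given 0.9% saline by that route (CIV). The amount of each compound is not given in the sources used here, so differences between compounds are differences between these treatments at unstated doses. Corn oil is named as a vehicle without the compound it carried, and no control mouse received it, so for such a compound the effects of compound and oil cannot be told apart. The labels do not state which samples share an animal, a litter or a day, and the p-values measure the spread between these samples.

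In necroptosis the kinase RIPK3 is engaged through death receptor signalling or through ZBP1, a sensor of nucleic acids in the Z conformation that is itself an interferon-induced gene, and RIPK3 phosphorylates MLKL, which then breaks the plasma membrane. In pyroptosis inflammasomes such as that of NLRP3 activate caspase CASP1, while CASP4 binds bacterial lipopolysaccharide in the cytosol, and both cleave GSDMD, whose freed part forms membrane pores. FAS and the TRAIL receptor TNFRSF10B recruit CASP8 through an adaptor, and CASP8 starts apoptosis and also cuts RIPK3, which holds necroptosis back. Hepatocytes carry FAS and are known for their sensitivity to it, whereas transcripts of Ripk3 and of the inflammasome genes are known mainly from the immune cells of the liver. In whole liver RNA, fewer cells of a type and less RNA per cell cannot be told apart.

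Estimated counts summed to 13826343 in the smallest library and 35075809 in the largest. Levels are given in CPM, estimated counts scaled by library size and TMM factor over all mice, as mean ± SD. All 6 hepatocyte markers (Alb, Apoa1, Ttr, Serpina1c, Cyp2e1, Cps1) were present in every group, and their summed level was lower in CCl4 livers (19694 to 29809 CPM) and GAL livers (26756 to 35068 CPM) than in their 2 saline controls (57077 and 63236 CPM). The summed 6 neutrophil markers reached 126 to 287 CPM in ConA livers and 159 to 825 CPM in TAA livers, against 7.94 and 8.97 CPM in the intravenous and 2.11 to 62.2 CPM in the gavage controls, and the summed 5 Kupffer cell markers were at 22.9 to 49.8 CPM in ConA livers against 277 and 279.7 CPM in their controls. Ly6g, a defining neutrophil gene, was at 0 in all mice of the ANIT, Ctrl, CIP and CIV groups. The mitochondrial share of the estimated counts was 14.6% to 39.3% in ConA livers, and 6.79% and 25.4% in the CIV livers. Their part in the results below was not tested, except where a value is given.

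The promoter windows of 7 of the members were found in RefSeq (GRCm38.p6), each running from 250 bases before to 50 bases after the annotated start, and Zbp1, Gsdmd and Tnfrsf10b had no entry. The windows were searched on both strands for the core of the interferon-stimulated response element (GAAA, any 2 bases, GAAA), present in 3.44% of the 32851 windows of this length, for the gamma-activated site to which STAT proteins bind (TTCNNNGAA, 8.3%), and for an NF-kB core (GGG, any 2 bases, TTTCC, 1.63%), the last of which was chosen after the sequences had been seen. Fas and Casp4, which both rose with ConA, are shown because they alone held a match, which is a description of letters and not of binding. Capitals mark the gamma-activated site core in Fas, 93 bases before the start (chr19:34290409-34290708, plus strand), and the 2 NF-kB cores in Casp4, 93 and 14 bases before the start (chr9:5308599-5308898, plus strand, the first of 2 overlapping windows of this gene).
Fas: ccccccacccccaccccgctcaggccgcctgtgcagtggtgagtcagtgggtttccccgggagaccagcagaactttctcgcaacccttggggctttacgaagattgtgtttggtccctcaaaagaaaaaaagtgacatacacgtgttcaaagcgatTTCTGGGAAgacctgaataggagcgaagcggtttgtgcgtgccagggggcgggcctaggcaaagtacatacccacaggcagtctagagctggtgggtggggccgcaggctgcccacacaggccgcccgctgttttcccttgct
Casp4: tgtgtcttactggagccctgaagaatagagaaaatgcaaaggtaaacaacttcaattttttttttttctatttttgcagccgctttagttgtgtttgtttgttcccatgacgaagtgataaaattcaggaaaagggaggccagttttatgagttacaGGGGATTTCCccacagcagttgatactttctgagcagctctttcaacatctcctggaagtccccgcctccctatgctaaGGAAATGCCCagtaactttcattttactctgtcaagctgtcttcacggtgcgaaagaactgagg
Neither window held the interferon-stimulated response element core, and the windows of Ripk3, Mlkl, Casp1, Casp8 and Nlrp3 held none of the 3 motifs.

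The first comparison asked which compounds moved these genes at all. ConA moved most of them: 7 of the 10 members tested rose against CIV and 0 fell (16.8% of all genes tested rose and 17.3% fell), called at an adjusted p under 0.05 in edgeR's quasi-likelihood test with Benjamini-Hochberg adjustment over all genes. With TAA 6 rose and 2 fell (background 26.4% and 24%), and with APAP 4 rose and 0 fell (17.3% and 14.6%). With GAL 4 rose and 1 fell (12.8% and 15.7%), and with CCl4 1 rose and 1 fell (18% and 15.6%). ANIT had 1 member higher and 2 lower of 9 tested (14% and 14.2%), and MDA 0 higher and 1 lower of 9 tested (17.4% and 16.4%). Tnfrsf10b was too low to enter the test for ANIT and MDA. With ConA 7 of 10 members were called in either direction against 34.2% of all genes, and with TAA 8 of 10 against 50.5%. The members called with GAL, 5 of 10, stood above 28.5% of all genes here but not above the share against all 17 vehicle mice given below. For ConA that share was 68% in either direction, and the 7 of 9 members called there were near it. Against the vehicle of the route, the members' share was near that of all genes for APAP (31.8%) and ANIT (28.2%). For CCl4 (33.5%) and MDA (33.8%) it was below. The median log2 fold change over the members tested was 1.88 for ConA, beside 0.03 over all genes, and -0.13 for MDA, beside 0.03. For GAL, TAA, APAP, CCl4 and ANIT the members' medians were 0.90, 0.65, 0.48, 0.36 and -0.24, beside 0.08, 0.03, 0.07, 0.10 and -0.01. With the range of mouse numbers as a covariate (described below) the ANIT median turned to 0.47, with 1 member higher and 0 lower. Of the 14072 genes tested, 1291 were then higher and 1393 lower. The MDA median turned to 0.06, with 1 member higher and 1 lower, beside 2399 and 2276 of 13522 genes. Scaling to the library total alone moved the balance of higher and lower calls over all genes. Under it GAL had 8 members higher and 0 lower (5515 and 844 of all genes), CCl4 3 and 0 (4565 and 1100), ANIT 0 and 3 (822 and 2651), ConA 5 and 0 (1101 and 3752) and APAP 4 and 0 (2937 and 1113). The gavage compounds share their 13 controls, and CCl4 and GAL share both of theirs.

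**Figure D1:**
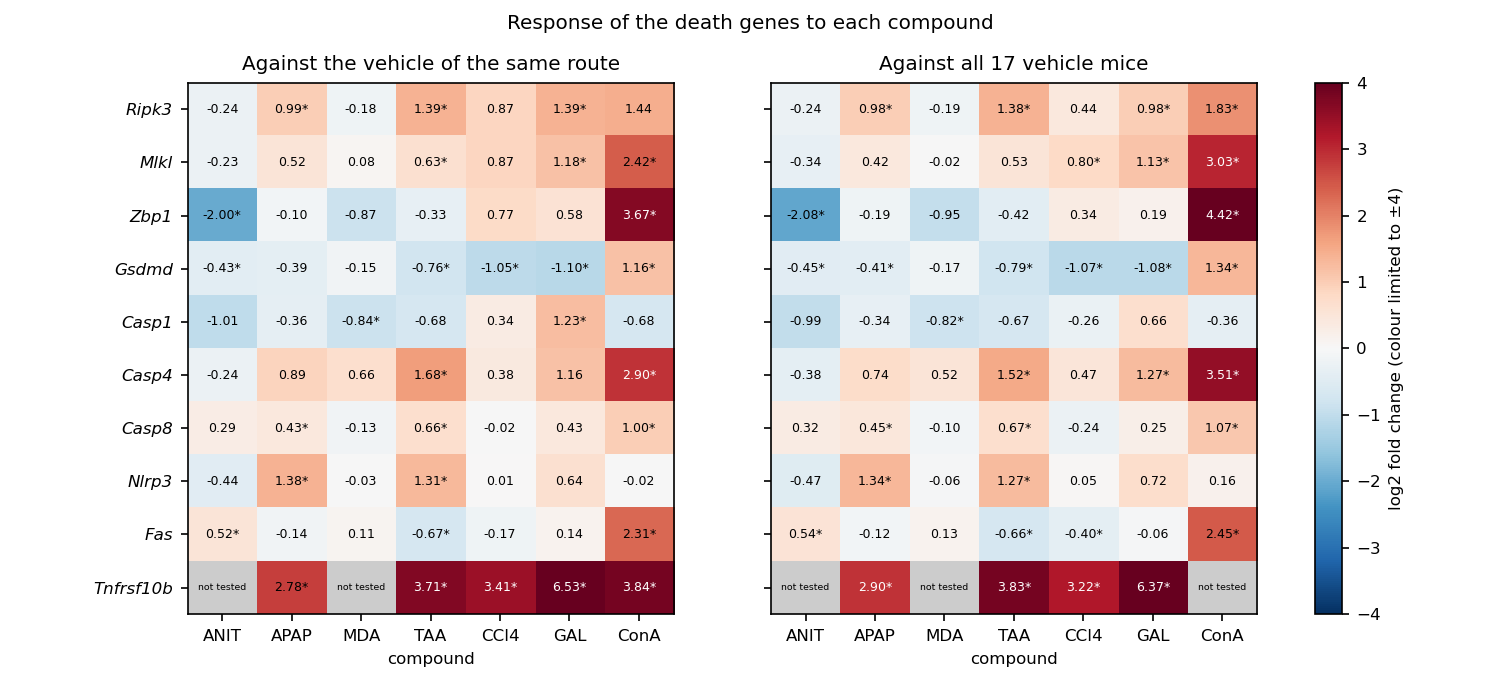
Log2 fold change of each gene (rows) with each compound (columns), against the vehicle of the same route on the left and against all 17 vehicle mice on the right; an asterisk marks an edgeR adjusted p under 0.05, and colours stop at a log2 fold change of 4 in either direction. Tnfrsf10b and the ConA column hold the strongest reds, and Gsdmd is blue in every column except that of ConA.

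Against all 17 vehicle mice the counts differed by at most 2. ConA had 7 members higher and 0 lower of 9 tested, where 34.3% of all genes were higher and 33.7% lower (68% in either direction). TAA had 5 and 2 (25.2% and 24.5%, together 49.7%), and APAP 4 and 1 (18.1% and 15.3%, together 33.4%). GAL had 4 and 1 (25.1% and 27.5%, together 52.5%), and CCl4 2 and 2 (26.2% and 27.2%, together 53.4%). ANIT had 1 and 2 of 9 (13.5% and 14.5%, together 28%), and MDA 0 and 1 of 9 (17.2% and 17.1%, together 34.2%). Tnfrsf10b, whose treated mice lay above all 17 vehicle mice with ConA, was not tested there because it was low in most of them. Counts resting on 2 control mice depended on single mice. For GAL, leaving out GAL 4, GAL 7 or GAL 8 gave 1, 2 and 2 called members in place of 5, and leaving out either saline mouse gave 1. Tnfrsf10b was the 1 gene called without GAL 4, CIP 7 or CIP 8.

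The level of the members differed among the gavage controls by mouse number, a division taken up with earlier results of these data known. The 4 control mice numbered 1 to 4 had lower levels than the other 9 in 3 of the 9 members tested and higher levels in 0 (background 1.73% lower and 0.603% higher, 2.33% in either direction), and the same 3 genes did not overlap between the ranges (background 2.22% of genes all below). Zbp1 was at 2.03 to 7.02 CPM in the 4 mice and at 8.15 to 22.0 CPM in the other 9, with a log2 difference of -1.57 ± 0.35 (SE, edgeR adjusted p 0.0299). Mlkl was at 1.53 to 2.47 against 3.14 to 5.05 CPM (-0.92 ± 0.18, edgeR adjusted p 0.0173), and Nlrp3 at 0.166 to 0.235 against 0.463 to 1.55 CPM (-2.05 ± 0.41, edgeR adjusted p 0.0177). Cell markers moved with this division: of 5 Kupffer cell markers tested 4 were lower in mice 1 to 4 (summed 151 to 187 against 258 to 437 CPM), and of 5 monocyte and macrophage markers tested 3 were lower (summed 55.5 to 64.0 against 80.3 to 164 CPM). The summed cholangiocyte markers were also lower in mice 1 to 4 (22.8 to 35.9 against 39.8 to 106 CPM) and the summed hepatocyte markers higher (83756 to 119089 against 52478 to 79015 CPM). None of these 4 sums overlapped between the ranges, and their part in the levels of Zbp1, Mlkl and Nlrp3 was not tested. All 4 ANIT mice are numbered 1 to 4, and the 4 saline mice carry the numbers 7 and 8. Where the range of numbers, taken as a covariate, ends a call with a gavage compound, its value is given beside the gene. What differed between mice of low and high number is not given in the sources used here.

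**Figure D2:**
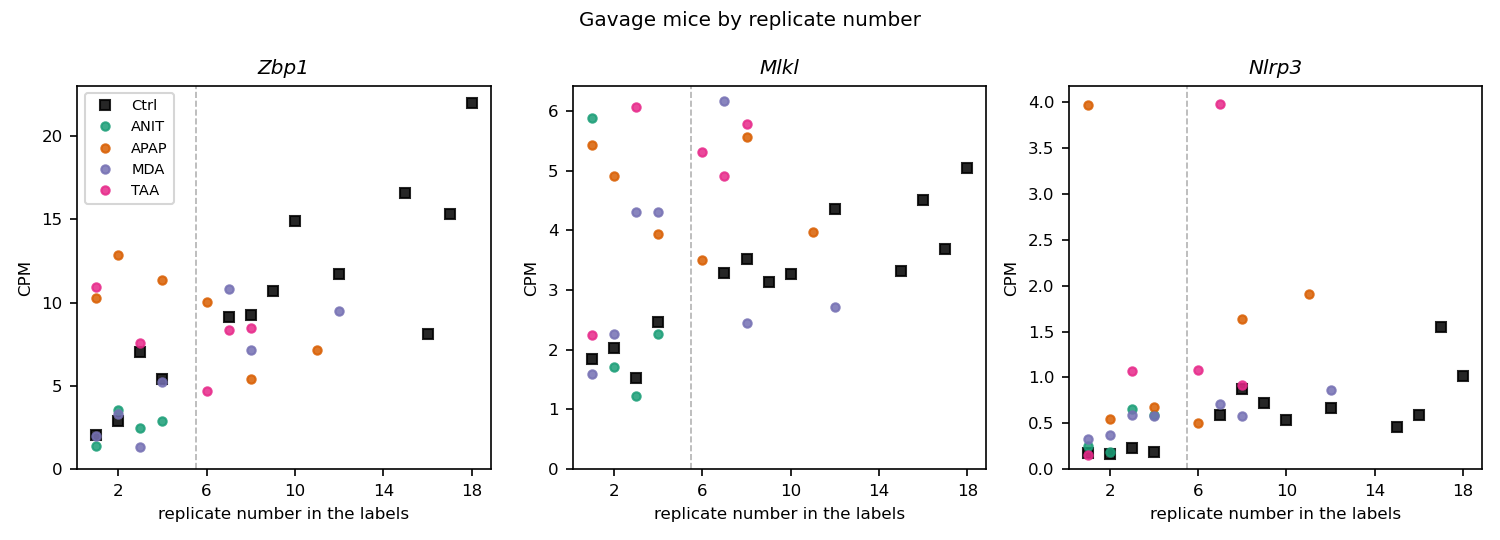
Level in CPM of Zbp1, Mlkl and Nlrp3 in each gavage mouse against its number in the labels, with control mice as black squares, treated mice as coloured circles and a dashed line between number 4 and the numbers above. The 4 control mice left of the line lie below all 9 to its right in each panel, and the ANIT mice all stand left of it.

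Against the gavage controls as a whole, the 2 saline groups differed in none of the 9 members tested by edgeR, and 0 of the 9 passed an unadjusted p of 0.05 in either group (background 0.0131% of genes called for CIP, all higher, and 0.0263% for CIV, 0.0197% higher and 0.00658% lower). Mlkl, at 5.07 and 5.29 CPM in the CIV mice, lay above all 13 gavage controls (log2 difference 0.66 ± 0.33, unadjusted p 0.0592 and adjusted p 0.961 in edgeR), the 1 member without overlap there (background 0.618% of genes above). Across all 17 vehicle mice, Gsdmd, Fas, Zbp1 and Casp8 were the most abundant members, with means of 29.5 ± 5.48, 14.6 ± 2.97, 11.1 ± 5.69 and 10.6 ± 1.93 CPM. Mlkl was at 3.49 ± 1.13, Casp1 at 1.77 ± 0.86, Ripk3 at 1.53 ± 0.649, Casp4 at 1.10 ± 0.647, Nlrp3 at 0.615 ± 0.346 and Tnfrsf10b at 0.162 ± 0.0983 CPM. The values fall with transcript length where few reads are counted (Spearman -0.955 over 5742 genes), so these levels compare per length as far as the values show. Neighbours in this order of means overlapped in range, so they are not ordered beyond the spread between mice, except Casp8 and Mlkl, whose ranges were apart.

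**Figure D3:**
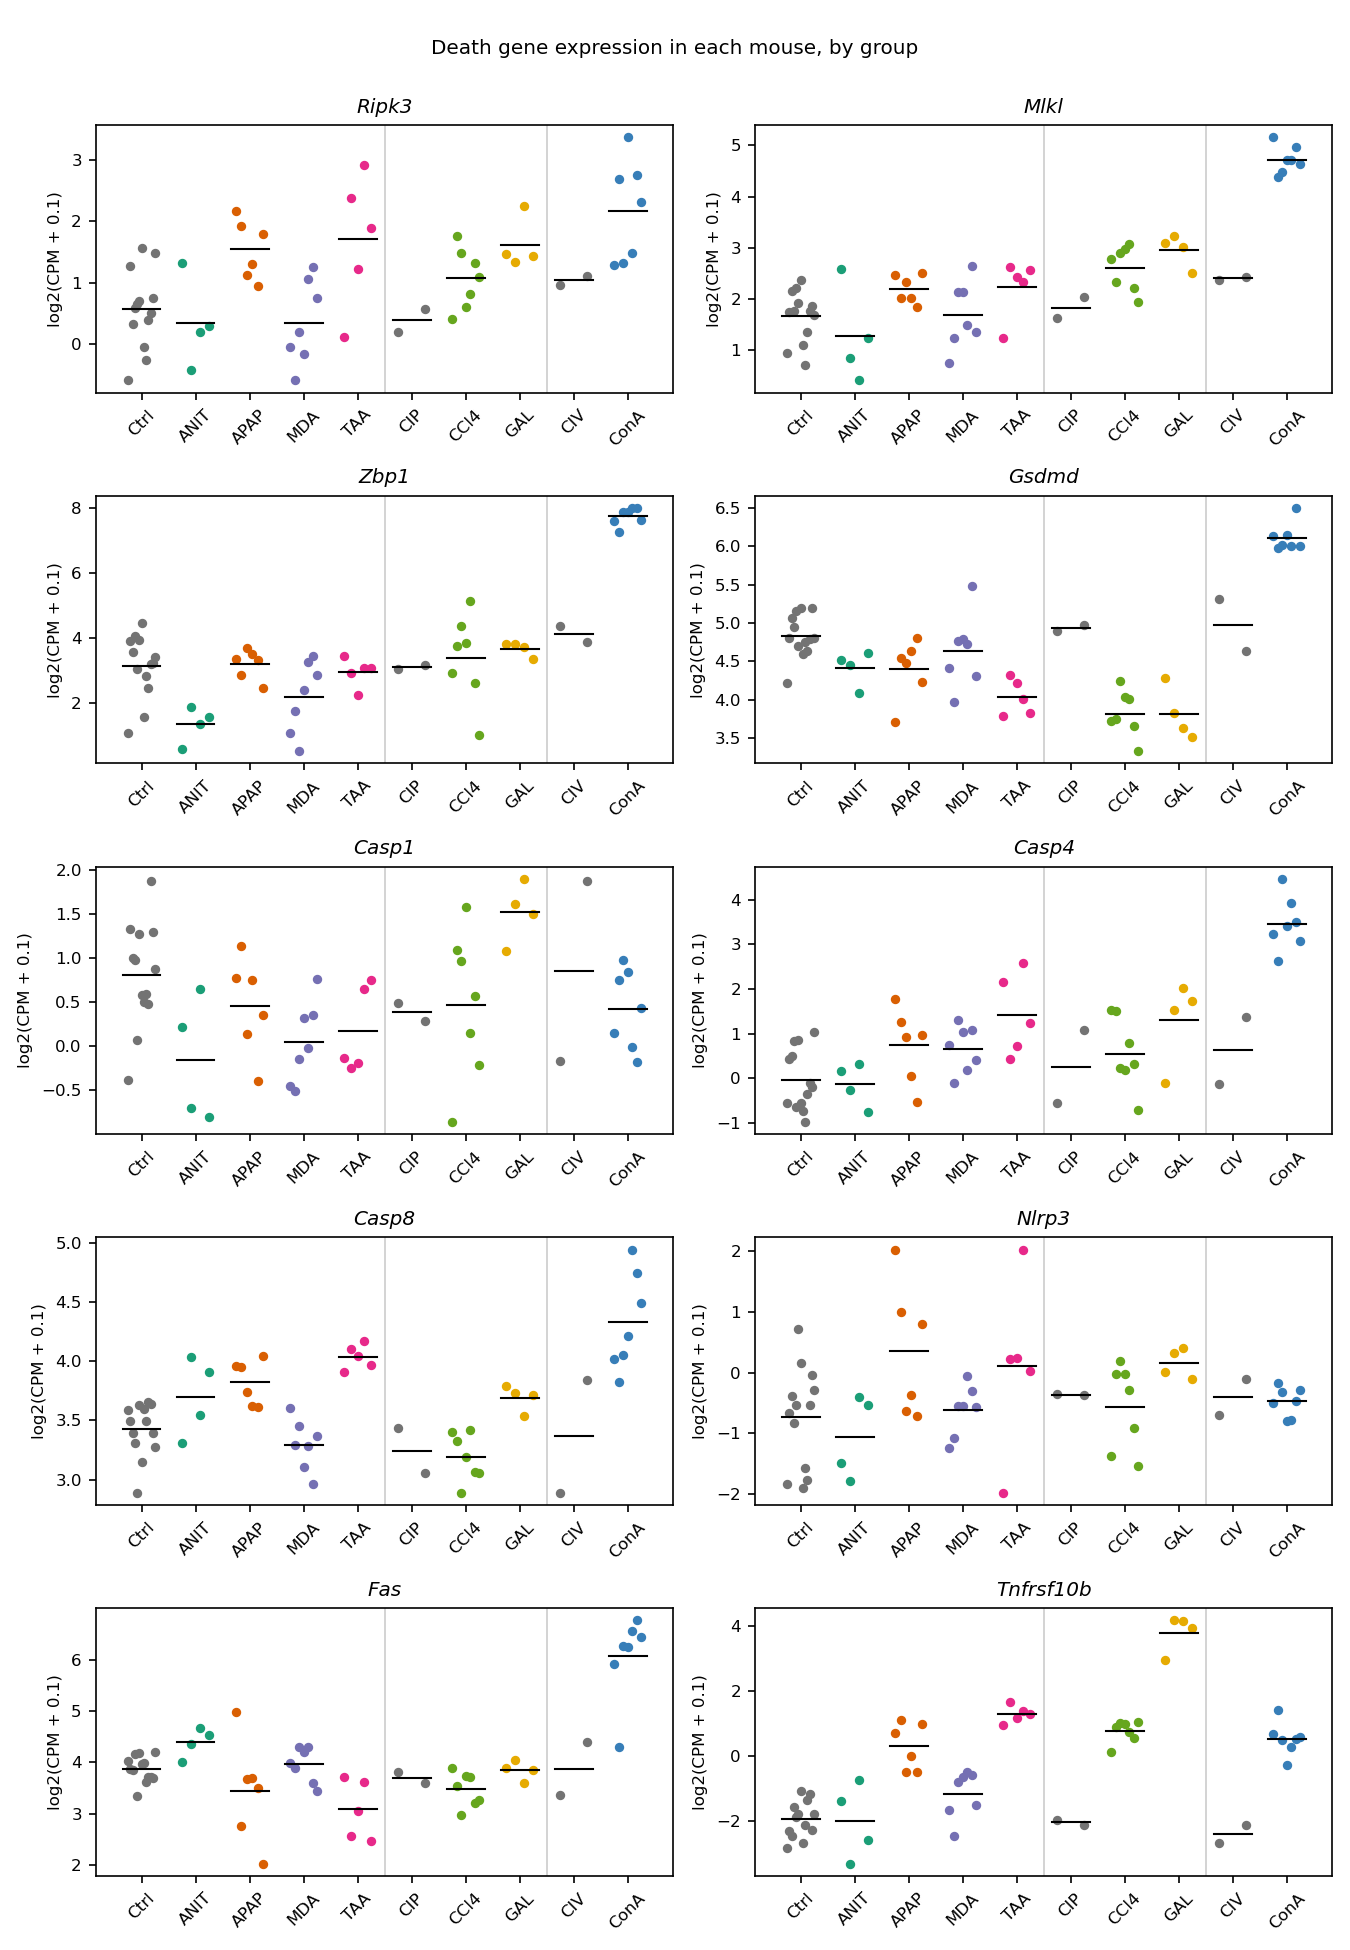
Level of each of the 10 genes in each of the 57 mice, as log2(CPM + 0.1), with 1 point per mouse, a black bar at the mean of the log values in each group and grey lines between the routes of administration. ConA mice stand above all other groups for Mlkl, Zbp1, Gsdmd and Casp4, and GAL mice for Tnfrsf10b.

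Among the necroptosis genes, Zbp1 (ENSMUSG00000027514) gave the clearest single response. Its level in the 7 ConA mice ran from 156 to 259 CPM with a median of 238, and the 2 intravenous controls had 20.8 and 14.8 CPM. Every ConA mouse thus lay above every other mouse of the study, the next being CCl4 5 at 35.1 CPM. The fitted log2 change was 3.67 ± 0.31 (SE, edgeR adjusted p 4.31e-05), from 17.8 ± 4.25 (SD, n = 2) to 220.0 ± 38.1 CPM (SD, n = 7), and 4.42 ± 0.29 against all 17 vehicle mice (edgeR adjusted p 9.42e-13). In a fit of all 57 mice the response to ConA exceeded that to each of the 6 other compounds, from CCl4 minus ConA -2.90 ± 0.89 (edgeR adjusted p 0.0189) to ANIT minus ConA -5.63 ± 0.94 (edgeR adjusted p 1.44e-05). The differences from CCl4 and GAL did not pass the test when libraries were scaled to their total alone.

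By group mean Zbp1 was lowest in the ANIT mice, at 1.39, 3.58, 2.49 and 2.90 CPM, against 2.03 to 21.99 CPM with a median of 9.25 in the 13 controls. The log2 fold change of -2.00 ± 0.51 passed the test (edgeR adjusted p 0.00706). All ANIT mice are numbered 1 to 4, and the 4 controls of those numbers had 2.03, 2.90, 7.02 and 5.41 CPM, a range that overlaps that of the ANIT mice. With the range of numbers as a covariate the value was -0.75 (edgeR adjusted p 0.196), and the fall was not called. With CCl4 the gene spread from 1.95 to 35.1 CPM, wider than in any other treated group relative to its mean (CV 78.1%), and its log2 fold change was 0.77 ± 0.85 (edgeR adjusted p 0.519). APAP, MDA, TAA and GAL gave log2 fold changes of -0.10, -0.87, -0.33 and 0.58, none called. With the covariate APAP and TAA turned to 0.28 and 0.01, also not called, and with the library total GAL was called (1.35, edgeR adjusted p 0.00966).

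Ripk3 (ENSMUSG00000022221), the necroptosis kinase, rose with APAP, TAA and GAL. The 6 APAP mice had 1.83 to 4.42 CPM (median 2.87) and the gavage controls 0.562 to 2.87 CPM (median 1.40), ranges that overlapped. On the log2 scale the change was 0.99 ± 0.29 with APAP (edgeR adjusted p 0.0126). In APAP livers 4 of 6 monocyte and macrophage markers were also called higher and 0 lower (summed 159 to 253 against 55.5 to 164 CPM), and in TAA livers 3 and 1 of 6, and their part in Ripk3 was not tested. TAA mice stood at 0.988, 5.13, 2.24, 7.45 and 3.59 CPM, with TAA 3, TAA 7 and TAA 8 above all 13 controls and TAA 1 and TAA 6 among them. The change was 1.39 ± 0.36 (edgeR adjusted p 0.00319).

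In GAL mice Ripk3 was at 2.66, 2.42, 4.64 and 2.61 CPM, all above the 2 intraperitoneal controls at 1.05 and 1.39 CPM. This rise of 1.39 ± 0.40 passed the test narrowly (edgeR adjusted p 0.0432). It was no longer called without GAL 4, GAL 7 or GAL 8 or without either control mouse (1.13 to 1.52, edgeR adjusted p 0.0546 to 0.187), whereas against all 17 vehicle mice it was 0.98 ± 0.29 (edgeR adjusted p 0.00768). Against CIP, 4 of 5 neutrophil, 3 of 6 monocyte and macrophage and 2 of 5 Kupffer cell markers tested were called higher with GAL, and 0 lower. GAL 7 had the highest sum of each among the GAL mice (40.7, 301 and 506 CPM), and their part in Ripk3 was not tested. In the 7 ConA mice Ripk3 spread from 2.34 to 10.3 CPM, all above the CIV mice at 1.85 and 2.06 CPM. Their log2 fold change of 1.44 ± 0.61 was not called against CIV (edgeR adjusted p 0.0941) and was called against all 17 vehicle mice (1.83 ± 0.28, edgeR adjusted p 2.1e-06). ANIT, MDA and CCl4 gave -0.24, -0.18 and 0.87, none called. The values of ANIT and MDA turned to 0.59 and 0.06 with the range of numbers as a covariate, also not called, and that of CCl4 was called with the library total (1.33, edgeR adjusted p 0.0461).

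Mlkl (ENSMUSG00000012519), which encodes the membrane-breaking end of the necroptosis pathway, was at 20.7 to 35.6 CPM (median 26.2) in ConA mice and at 5.07 and 5.29 CPM in CIV. The 7 ConA mice lay above the other 50 mice, whose highest value was 9.25 CPM in GAL 4. The log2 fold change was 2.42 ± 0.27 (SE, edgeR adjusted p 0.000173). GAL mice had 8.45, 9.25, 8.03 and 5.56 CPM against 2.99 and 3.99 CPM in CIP, again without overlap, and the change was 1.18 ± 0.28 (edgeR adjusted p 0.0255). This call was lost without GAL 4, GAL 7, CIP 7 or CIP 8 (edgeR adjusted p 0.0547 to 0.132), and held against all 17 vehicle mice (1.13 ± 0.23, edgeR adjusted p 0.000291). In TAA mice Mlkl was at 2.25, 6.07, 5.32, 4.91 and 5.79 CPM against 1.53 to 5.05 CPM in the controls, a rise of 0.63 ± 0.24 (edgeR adjusted p 0.0356) that was called in 7 of the 16 other settings tried and not against all 17 vehicle mice (0.53, edgeR adjusted p 0.0662). CCl4 gave 0.87 ± 0.34, not called against CIP (edgeR adjusted p 0.0757) and called against all 17 (0.80, edgeR adjusted p 0.00139) and with the library total (1.32, edgeR adjusted p 0.0141). APAP gave 0.52 (edgeR adjusted p 0.0613), which was called with the range of numbers as a covariate (0.70, edgeR adjusted p 0.00854). ANIT and MDA gave -0.23 and 0.08, and 0.47 and 0.31 with that covariate, none called.

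The response of Mlkl to ConA exceeded those to ANIT, APAP, MDA and TAA in the fit of all 57 mice, from TAA minus ConA -1.77 ± 0.51 (edgeR adjusted p 0.0179) to ANIT minus ConA -2.60 ± 0.54 (edgeR adjusted p 0.000332). For CCl4 and GAL the difference from ConA was not called. Scaled to the library total, the responses to ConA still exceeded those to ANIT and MDA and no longer those to APAP and TAA.

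Among the pyroptosis genes, Gsdmd (ENSMUSG00000022575), which encodes the pore-forming protein, moved in opposite directions. ConA mice had 62.7 to 90.3 CPM (median 64.3) and the CIV mice 39.5 and 24.7 CPM. The highest of the other 50 mice was MDA 7 at 44.7 CPM. This separation is on the TMM scale, with factors of 0.477 to 1.01 in ConA and 0.886 to 1.09 in CIV mice. Per library total, ConA and CIV mice overlapped. The lowest ConA count, 552, came from a library of at least 16652806, and the highest CIV count, 1206, from one of at most 35075809. The log2 fold change with ConA was 1.16 ± 0.25 (edgeR adjusted p 0.00541). It was 0.53 with libraries scaled to their total (edgeR adjusted p 0.3), a scaling that moved the median over all genes by -0.59 (from 0.03 to -0.56), and relative to that median Gsdmd stood 1.13 higher under TMM and 1.09 under the total.

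In CCl4 mice Gsdmd was at 9.94 to 18.9 CPM (median 13.3), below both intraperitoneal controls at 29.5 and 31.35 CPM. The fitted log2 change was -1.05 ± 0.20 (edgeR adjusted p 0.00363). GAL mice had 19.4, 14.02, 12.2 and 11.3 CPM, also below both controls (-1.10 ± 0.24, edgeR adjusted p 0.0192). Scaling to the library total raised the median over all genes by 0.43 for CCl4 and 0.76 for GAL, and these falls became -0.61 and -0.32 and were not called (edgeR adjusted p 0.0623 and 0.421). The GAL call was also lost without GAL 4, GAL 8, CIP 7 or CIP 8 (edgeR adjusted p 0.0514 to 0.0948). Hepatocyte markers were lower in these same groups on the TMM scale, as given above, and their part in this fall was not tested.

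In TAA mice Gsdmd was at 13.7, 19.9, 18.5, 16.1 and 14.1 CPM, and in the gavage controls at 18.6 to 36.6 CPM (median 27.8). TAA 3 stood above the lowest control, Ctrl 1, and the other 4 TAA mice below all 13. On the log2 scale the change was -0.76 ± 0.15 (edgeR adjusted p 0.000213), and it was called in every setting tried. The smaller fall with ANIT (-0.43 ± 0.15, edgeR adjusted p 0.0462) was called in 6 of 15 other settings and not with the range of numbers as a covariate (-0.14, edgeR adjusted p 0.572). It was also lost without any 1 of the 4 ANIT mice (-0.33 to -0.49, edgeR adjusted p 0.0529 to 0.189). APAP gave -0.39 ± 0.15, just outside the threshold (edgeR adjusted p 0.0543) and inside it against all 17 vehicle mice (-0.41, edgeR adjusted p 0.0275). MDA gave -0.15, not called. ConA exceeded each of the 6 other compounds in its effect on Gsdmd in the fit of all 57 mice, from MDA minus ConA -1.27 ± 0.31 (edgeR adjusted p 0.00192) to GAL minus ConA -2.21 ± 0.38 (edgeR adjusted p 4.91e-05), and with scaling to the total only over TAA (TAA minus ConA -1.29, edgeR adjusted p 0.0444).

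Casp4 (ENSMUSG00000033538), the lipopolysaccharide-binding caspase, ran from 6.08 to 22.1 CPM (median 10.5) in ConA mice and was at 0.819 and 2.49 CPM in CIV. All 7 ConA mice lay above the other 50, of which TAA 7 was highest at 5.89 CPM. The log2 fold change was 2.90 ± 0.60 (edgeR adjusted p 0.00474). TAA mice had 4.33, 1.25, 1.54, 5.89 and 2.24 CPM, 3 of them above all 13 controls (0.405 to 1.96 CPM, median 0.767), and the change was 1.68 ± 0.38 (edgeR adjusted p 0.00106). Both rises were called in every setting tried.

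With GAL, Casp4 was at 0.822, 2.803, 3.98 and 3.22 CPM, GAL 2 lying within the range of the CIP mice (0.574 and 2.02 CPM) and the other 3 above it. The log2 fold change of 1.16 ± 0.77 was not called against CIP (edgeR adjusted p 0.288) and was called against all 17 vehicle mice (1.27 ± 0.41, edgeR adjusted p 0.0118). APAP and MDA gave 0.89 and 0.66, not called (edgeR adjusted p 0.0717 and 0.103), and called with the range of numbers as a covariate (1.08 and 0.88, edgeR adjusted p 0.0413 and 0.0422). ANIT and CCl4 gave -0.24 and 0.38, not called, and ANIT turned to 0.59 with that covariate (edgeR adjusted p 0.386) and CCl4 to -0.29 without CIP 7 (edgeR adjusted p 0.82).

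Casp1 (ENSMUSG00000025888) is the inflammasome caspase. In ConA mice it was at 0.781 to 1.88 CPM (median 1.25), within the range of the CIV mice at 0.792 and 3.57 CPM except for ConA 5 just below it, and its log2 fold change of -0.68 ± 0.54 was not called (edgeR adjusted p 0.363). It was 0.74 without CIV 8 and -1.37 without CIV 7, neither called (edgeR adjusted p 0.408 and 0.0816), so its direction rests on CIV 8. In GAL mice it was at 2.02, 2.96, 3.64 and 2.75 CPM, all above the CIP mice at 1.31 and 1.12 CPM. The rise of 1.23 ± 0.35 (edgeR adjusted p 0.0428) was lost without any 1 of GAL 4, GAL 7, GAL 8, CIP 7 or CIP 8 (edgeR adjusted p 0.0805 to 0.213) and against all 17 vehicle mice (0.66, edgeR adjusted p 0.094). The Kupffer cell and the monocyte markers were also higher in GAL livers, at 353 to 506 and 201 to 301 CPM summed, than in CIP livers (298 and 314, and 97.4 and 137 CPM), and their part was not tested.

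Against the vehicle of its route, a fall of Casp1 was called for MDA. The 7 MDA mice had 0.604 to 1.598 CPM (median 0.889) and the 13 controls 0.670 to 3.59 CPM (median 1.74), with overlap. The fitted log2 change was -0.84 ± 0.28 (edgeR adjusted p 0.0227), and -0.65 with the range of numbers as a covariate (edgeR adjusted p 0.0453). Whether MDA differed from the other compounds here was tested in the fit of all 57 mice, where the response to MDA differed from that to GAL alone (-2.08 ± 0.67, edgeR adjusted p 0.0233). ANIT gave a larger value, -1.01, that was not called (edgeR adjusted p 0.0626), was called with DESeq2 (adjusted p 0.046), with the library total (-1.25, edgeR adjusted p 0.039) and without ANIT 3 (-1.38, edgeR adjusted p 0.0382), and was -0.41 with the range of numbers as a covariate (edgeR adjusted p 0.539). APAP, TAA and CCl4 gave -0.36, -0.68 and 0.34, none called. CCl4 turned to -0.26 against all 17 vehicle mice, also not called (edgeR adjusted p 0.522).

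Nlrp3 (ENSMUSG00000032691), the inflammasome sensor, was low, with 2.47 to 116 estimated counts per mouse. APAP mice stood at 0.507 to 3.97 CPM (median 1.16) against 0.166 to 1.55 CPM (median 0.587) in the controls. APAP 1, APAP 8 and APAP 11 lay above all 13 controls and the other 3 within them. The rise of 1.38 ± 0.47 (edgeR adjusted p 0.0304) was 0.85 without APAP 1 and was then not called (edgeR adjusted p 0.18), nor was it without APAP 8 or APAP 11 (edgeR adjusted p 0.057 and 0.0661).

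With TAA, Nlrp3 was at 0.153, 1.07, 1.07, 3.99 and 0.916 CPM, so that TAA 7 alone lay above the controls and TAA 1 alone below them. The rise of 1.31 ± 0.53 (edgeR adjusted p 0.0448) was 0.48 without TAA 7 (edgeR adjusted p 0.489) and was called in 7 of 15 other settings, also being lost without TAA 3 or TAA 6 (edgeR adjusted p 0.0528 and 0.056). TAA 7 also had the highest summed neutrophil markers of the TAA mice, 825 CPM against 159 to 375 CPM in the other 4, and among the APAP mice APAP 8 and APAP 11 had 196 and 263 CPM. APAP 1, the APAP mouse with the highest Nlrp3, had 41.3 CPM of neutrophil markers, within the range of the gavage controls, and the other 3 had 13.4 to 19.5 CPM. The part of neutrophils in these values was not tested. In ConA mice, whose neutrophil markers were also high, Nlrp3 was at 0.473 to 0.788 CPM against 0.516 and 0.826 CPM in CIV (log2 fold change -0.02 ± 0.49, edgeR adjusted p 0.977). ANIT, MDA, CCl4 and GAL gave -0.44, -0.03, 0.01 and 0.64, none called. With the range of numbers as a covariate the values turned to 1.25 for ANIT and 0.49 for MDA (edgeR adjusted p 0.0847 and 0.389), and for GAL the library total gave a called 1.38 (edgeR adjusted p 0.0356).

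Tnfrsf10b (ENSMUSG00000022074), the only mouse receptor for TRAIL that carries a death domain and a known p53 target, was called higher with GAL, TAA, CCl4, ConA and APAP. Being low in all vehicle mice, it could pass the filter on low counts only where a treated group was high, so the number of compounds is fixed in part by that filter. It was nearly silent in vehicle mice, at 0.0399 to 0.371 CPM in Ctrl, 0.155 and 0.127 in CIP and 0.0559 and 0.130 in CIV, or 0.547 to 9.84 estimated counts per mouse. GAL mice had 7.52, 17.8, 17.4 and 15.1 CPM (215 to 566 estimated counts), above all other mice. On the log2 scale the change was 6.53 ± 0.58 (edgeR adjusted p 0.00217) against CIP and 6.37 ± 0.28 against all 17 vehicle mice (edgeR adjusted p 5.95e-13). Since the 2 CIP mice held 7 estimated counts together, the ratio of summed levels, 97.1, has a 95% counting interval (exact binomial) of 47 to 242, which covers counting error only and takes the estimated counts as reads.

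TAA mice had 1.83, 3.02, 2.14, 2.50 and 2.32 CPM of Tnfrsf10b, and APAP mice 0.607 to 2.04 CPM (median 1.20). Neither group overlapped the gavage controls. The log2 fold changes were 3.71 ± 0.31 (edgeR adjusted p 1.18e-08) and 2.78 ± 0.36 (edgeR adjusted p 1.28e-05). CCl4 mice had 0.976 to 1.94 CPM (median 1.75) and ConA mice 0.724 to 2.57 CPM (median 1.34), and both groups lay above their controls. The changes were 3.41 ± 0.40 (edgeR adjusted p 0.000222) for CCl4 and 3.84 ± 0.68 (edgeR adjusted p 0.002) for ConA, whose ratios of summed levels, 11.0 and 15.7, have counting intervals of 5.29 to 27.6 and 7.05 to 43.6. With GAL, TAA, CCl4 and ConA the rise was called in every setting in which the gene was tested, each left-out mouse included. On the scale log2(CPM + 1), which understates changes of low genes, the rises were smaller, 4.08 for GAL, 1.51 for TAA, 1.36 for CCl4, 0.91 for ConA and 0.90 for APAP.

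For ANIT and MDA the gene was left out of the test against the gavage controls by the filter on low counts. ANIT mice had 0.280, 0, 0.495 and 0.0645 CPM, the 0 of ANIT 2 allowing up to 0.151 CPM (3 estimated counts), and MDA mice 0.0818 to 0.603 CPM (median 0.469). Both overlapped the controls. The ratio of summed levels was 1.05 for ANIT (counting interval 0.521 to 1.97) and 2.34 for MDA (1.58 to 3.48). Of the 3 alternatives that tested it, MDA was called higher in 2, with a log2 fold change of 1.12 in the fit of all 57 mice (edgeR adjusted p 0.0189) and 1.15 with DESeq2 (adjusted p 0.0404), and not in edgeR without a filter (1.11, adjusted p 0.0597). ANIT was called in 0 of the 3 (0.14 to 0.17, edgeR and DESeq2 adjusted p 0.884 to 0.994, unadjusted p 0.807 to 0.933). In the fit of all 57 mice, in which the gene was tested, the response to GAL exceeded those to ANIT, APAP, MDA, TAA and CCl4, from TAA minus GAL -2.86 ± 0.85 (edgeR adjusted p 0.0221) to ANIT minus GAL -6.38 ± 0.97 (edgeR adjusted p 2.05e-06). Its difference from ConA was called only with scaling to the library total (3.86 ± 1.14, edgeR adjusted p 0.00664). CCl4, which shares its controls with GAL, differed from it by -3.15 ± 0.43 (CCl4 minus GAL, edgeR adjusted p 9.63e-08).

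Fas (ENSMUSG00000024778), the receptor of Fas ligand, rose with ConA and ANIT and fell with TAA against the vehicle of the route. ConA mice had 77.0, 75.8, 93.8, 108, 86.6, 60.0 and 19.7 CPM, the CIV mice 10.2 and 20.9 CPM. ConA 12 was thus inside the range of its controls, and the other 6 were above every mouse of the other groups, the highest of which was APAP 1 at 31.4 CPM. The log2 fold change was 2.31 ± 0.56 (edgeR adjusted p 0.0105), not called without CIV 7 (1.91, edgeR adjusted p 0.0952), and 2.45 ± 0.18 against all 17 vehicle mice (edgeR adjusted p 1.02e-11). The response to ConA exceeded that to each of the 6 other compounds under TMM, from ANIT minus ConA -1.74 ± 0.53 (edgeR adjusted p 0.0137) to TAA minus ConA -2.98 ± 0.54 (edgeR adjusted p 0.000182), and all but that to GAL with scaling to the total.

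ANIT mice had 16.0, 20.3, 25.4 and 23.0 CPM of Fas against 10.1 to 18.3 CPM (median 14.6) in the controls, ANIT 1 within that range and 3 above it. The rise of 0.52 ± 0.15 (edgeR adjusted p 0.012) was kept with the range of numbers as a covariate (0.57, edgeR adjusted p 0.0468) and lost without ANIT 3 (0.42, edgeR adjusted p 0.0758), with scaling to the total (0.31, edgeR adjusted p 0.198) and in the fit of all 57 mice (0.52, edgeR adjusted p 0.2). TAA mice had 13.03, 5.87, 8.22, 12.1 and 5.46 CPM, 3 of the 5 below all controls, and the log2 fold change was -0.67 ± 0.19 (edgeR adjusted p 0.00761). The responses to ANIT and TAA differed by 1.25 ± 0.34 (edgeR adjusted p 0.00504) in the fit of all 57 mice. APAP mice stood at 3.99 to 31.4 CPM, and the log2 fold change of -0.14 (edgeR adjusted p 0.753) became -0.62 without APAP 1 (edgeR adjusted p 0.0323), the mouse with the highest value outside the ConA group, and 0.05 without APAP 8 (edgeR adjusted p 0.898). MDA, CCl4 and GAL gave 0.11, -0.17 and 0.14, none called against the vehicle of their route. Against all 17 vehicle mice CCl4 was called lower (-0.40, edgeR adjusted p 0.0145) and GAL gave -0.06, while with the library total CCl4 gave 0.25, not called, and GAL a called 0.90 (edgeR adjusted p 0.0336).

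Casp8 (ENSMUSG00000026029), the initiator caspase of the death receptors, varied least. Its levels ran from 7.31 CPM to 30.7 CPM over all mice. TAA mice had 14.9, 17.1, 16.4, 17.9 and 15.6 CPM, all above the 13 controls (7.31 to 12.5 CPM, median 11.2), and the log2 fold change was 0.66 ± 0.11 (edgeR adjusted p 4.27e-05). APAP mice had 12.1 to 16.4 CPM (median 14.3), a rise of 0.43 ± 0.12 (edgeR adjusted p 0.00944), with 2 of the 6 inside the range of the controls.

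ConA mice had 14.1 to 30.7 CPM (median 18.5) of Casp8, and the CIV mice 7.32 and 14.3 CPM. ConA 12 lay within that range and the other 6 above it. The rise of 1.00 ± 0.35 (edgeR adjusted p 0.0478) was called in 6 of 17 other settings. It was 0.62 without CIV 7 (edgeR adjusted p 0.295), 1.53 without CIV 8, and lost its call without ConA 2, 3, 4, 5, 8 or 11 (edgeR adjusted p 0.0504 to 0.076) and with scaling to the total (0.42, edgeR adjusted p 0.44), and it was 1.07 ± 0.14 against all 17 vehicle mice (edgeR adjusted p 1.66e-07). ANIT, MDA, CCl4 and GAL gave 0.29, -0.13, -0.02 and 0.43, none called, although all 4 GAL mice (11.5 to 13.7 CPM) lay above both CIP mice (10.7 and 8.21 CPM). With the library total GAL gave a called 1.19 (edgeR adjusted p 0.0165), and ANIT a called 0.41 without ANIT 1 (edgeR adjusted p 0.0484).

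Groups without overlap, counted on the TMM scale alone, give another view of the same values. With GAL, 7 of the 10 members lay above both controls and 1 below (background 26.7% and 25.5% of genes), with ConA 6 above and 0 below (18.5% and 21.4%), and with CCl4 1 above and 1 below (21.1% and 19.9%). These rest on 2 control mice each. Against all 17 vehicle mice 2 members lay above and 0 below with GAL (10.7% and 14%), 5 and 0 with ConA, Tnfrsf10b being 1 of the 5 although too low to be tested there (11.7% and 15% of genes tested), and 1 and 0 with CCl4 (9.04% and 9.2%). With TAA 2 members lay above all 13 controls and 0 below (10% and 10.2%), with APAP 1 and 0 (2.09% and 4.59%), and with ANIT and MDA 0 in either direction (3.99% and 5% for ANIT, 1.75% and 3.07% for MDA). Of the 210 differences between compounds tested (21 pairs for each of the 10 members, adjusted over all genes within a pair), 61 were called, with 63 under scaling to the library total. Over all genes the share called ran from 0.24% to 28.6% between pairs, with a median of 16.6%. Tnfrsf10b gave 12 of them, Zbp1 10, Gsdmd 9 and Fas 8, and Casp1 gave 2. The pair of ANIT and MDA, for which 0.24% of all genes differed, gave 0 among the members. Under the library total, which rescales all genes of a mouse together, 1 of the 21 pairs was called for Gsdmd, 7 for Casp1, 7 for Mlkl, 6 for Ripk3, 14 for Tnfrsf10b, 8 for Zbp1 and 8 for Fas.

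The partners of these genes were counted from lists chosen by name, and each count is to be read against the share of all genes called in either direction, which was 50.5% with TAA, 34.2% with ConA, 33.8% with MDA, 33.5% with CCl4, 31.8% with APAP, 28.5% with GAL and 28.2% with ANIT. With the range of numbers as a covariate the genes called were 7516 of 14360 with TAA, 4675 of 13522 with MDA, 4388 of 13939 with APAP and 2684 of 14072 with ANIT. Of 14 tested partners in death receptor and necroptosis signalling, 6 rose and 3 fell with TAA, 6 and 1 with ConA, 5 and 1 with APAP, 3 and 2 with ANIT, 3 and 2 with MDA, 1 and 2 with GAL, and 0 and 1 with CCl4. The counts for MDA, ANIT, GAL, APAP and TAA lie within 2 genes of what that share gives for 14. Against all 17 vehicle mice ConA had 12 higher and 1 lower (68% of all genes called) and GAL 4 and 2 (52.5%), and with the range of numbers as a covariate APAP had 3 and 1. Tnfaip3, a ubiquitin-editing brake on NF-kB and on necroptosis, had the largest rise in the list with ConA (6.89 ± 0.84 on the log2 scale, edgeR adjusted p 0.000258), with APAP (4.05 ± 0.79, edgeR adjusted p 0.000608) and with TAA (3.36 ± 0.29, edgeR adjusted p 1.36e-08). Tnfsf10, which encodes TRAIL, the ligand of the Tnfrsf10b product, was lower with TAA (-3.34 ± 0.40, edgeR adjusted p 1.04e-06), ANIT (-2.45 ± 0.34, edgeR adjusted p 4.98e-05), MDA (-1.65 ± 0.25, edgeR adjusted p 3.64e-05) and APAP (-1.36 ± 0.36, edgeR adjusted p 0.00728). With ANIT and MDA the TNF receptor Tnfrsf1a rose by 1.40 ± 0.15 and 0.65 ± 0.11 (edgeR adjusted p 4.61e-06 and 0.000125). Bid, the CASP8 substrate that links the receptors to mitochondria, rose with GAL by 1.40 ± 0.19 (edgeR adjusted p 0.00435).

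Of the inflammasome and pyroptosis partners, 8 rose and 4 fell with TAA and 6 and 2 with APAP (17 tested), 5 and 2 with ConA (16 tested), 3 and 3 with GAL and 1 and 3 with CCl4 (17 tested), 1 and 3 with ANIT (17 tested), and 1 and 5 with MDA (16 tested). The counts for MDA, ANIT, GAL, CCl4 and ConA lie within 2 genes of what the shares of all genes given above would give. With the range of numbers as a covariate the counts became 4 and 1 for ANIT, 3 and 6 for MDA, 7 and 2 for APAP and 8 and 4 for TAA. With MDA 9 of 16 were then called, beside 4675 of 13522 genes. Il1rn, the interleukin receptor antagonist, rose with ConA from 3.14 to 343 CPM (6.82 ± 0.27, edgeR adjusted p 1.95e-06) and with CCl4 from 2.39 to 57.4 CPM (4.65 ± 0.26, edgeR adjusted p 5.93e-06). The guanylate-binding proteins Gbp2 and Gbp5, which open the way to CASP4 activation, rose with ConA by 6.88 ± 0.52 and 5.09 ± 0.65 (edgeR adjusted p 2.77e-05 and 0.000344). Nlrp6 fell with GAL, TAA, CCl4, ConA and APAP (-2.65, -2.27, -2.17, -1.64 and -0.93), and Il18, a cytokine that CASP1 matures, with the same compounds (-1.48, -1.74, -1.09, -1.90 and -0.68) and with ANIT (-1.03). Pycard, the adaptor of the inflammasome, fell with MDA from 2.20 to 0.382 CPM (-2.42 ± 0.50, edgeR adjusted p 0.000871), with which Casp1 was also called lower. In MDA livers all 5 stellate cell markers (summed 6.56 to 15.0 against 16.0 to 40.3 CPM) and the 3 B cell markers tested, of 5, were called lower too (summed 0.863 to 2.65 against 4.66 to 9.55 CPM). Neither sum overlapped the controls, and their part in Casp1 and Pycard was not tested.

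In the interferon response list 10 of 14 tested genes rose with ConA and 0 fell, with a median log2 fold change of 3.22, beside 0.03 over all genes, Cxcl10 rising from 15.2 to 3482 CPM (7.86 ± 1.10, edgeR adjusted p 0.000552) and Rsad2 by 6.92 ± 0.77 (edgeR adjusted p 0.000162). With ANIT 0 rose and 11 fell, with MDA 1 and 8, and with APAP 1 and 6, with TAA 2 and 6, with CCl4 1 and 2, and with GAL 2 and 0. The counts for TAA, CCl4 and GAL lie within 2 genes of what the shares of all genes would give, and differences between compounds were not tested for the list. Control mice numbered 1 to 4 had 6 of these 14 genes lower than the other controls and 0 higher, and with the range of numbers as a covariate 4 were lower with ANIT and 3 with APAP, 9 with MDA and 7 with TAA. Zbp1, itself an interferon-induced gene, was called in the same direction as most of this list with ConA. With ANIT it was called lower as well, but with the range of numbers as a covariate neither Zbp1 nor most of the list was.

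In the list of p53 targets used here, which leaves out the members Fas and Tnfrsf10b, every gene called against the vehicle of its route was higher. They numbered 12 of 12 tested with TAA, 11 of 12 with ConA, 9 of 12 with GAL and with CCl4, 7 of 11 with APAP, and 4 of 11 with ANIT and with MDA. The counts for ANIT and MDA lie within 1 gene of what the shares of all genes called in either direction (28.2% and 33.8%) would give. Phlda3 rose with GAL from 0.722 to 35.2 CPM (5.61 ± 0.26, edgeR adjusted p 0.00176) and Eda2r, a further receptor of the TNF receptor family, from 0.237 to 4.92 CPM (4.64 ± 0.94, edgeR adjusted p 0.0152). Cdkn1a rose with ANIT (2.84 ± 0.36, edgeR adjusted p 2.52e-05) and MDA (2.83 ± 0.31, edgeR adjusted p 8.8e-07), for which Tnfrsf10b overlapped its controls. Among the apoptosis execution genes, 6 rose and 3 fell with TAA, 6 and 1 with ConA, 5 and 2 with GAL, 3 and 3 with CCl4 (13 tested), 5 and 2 with APAP, 3 and 1 with MDA, and 2 and 4 with ANIT (12 tested). The counts for MDA and CCl4 lie within 2 genes of what the shares of all genes would give. Apaf1, the scaffold of the apoptosome, rose with ConA (3.91 ± 0.44, edgeR adjusted p 0.000168), GAL (2.71 ± 0.60, edgeR adjusted p 0.0199) and APAP (2.47 ± 0.42, edgeR adjusted p 0.000176), and Casp9, the caspase it activates, fell with ConA (-1.35), GAL (-1.28), ANIT (-1.25), CCl4 (-1.07) and TAA (-0.82).

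The genes whose levels across the 57 mice were most like each member were found by Pearson's r of log2(CPM + 1) among the 12240 genes that averaged 1 CPM or more. The points share their libraries, and the treated groups set much of these values, so r is a description. Zbp1 was most like Isg15 (r 0.97), Xaf1 (0.95) and Gbp3 (0.95), and after removal of the group means r was still 0.80, 0.74 and 0.66. Tnfrsf10b was most like Gtse1 (0.93), Phlda3 (0.91) and Zmat3 (0.91), with 0.20, 0.28 and 0.51 within groups. By Spearman's rho, with a pseudocount of 0.1 CPM or after centring on the group means, 0 of these 3 stayed among its nearest 3. Casp4 was most like Hivep2 (0.93), Jak2 (0.92) and Rlf (0.92), and within groups r was 0.72, 0.69 and 0.71. Nlrp3, most like Fpr2 (0.85), Pik3r5 (0.80) and Il1b (0.80), had the highest single value within groups, 0.85 with Fpr2. With Pik3r5 and Il1b it was 0.77 and 0.79.

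**Figure D4:**
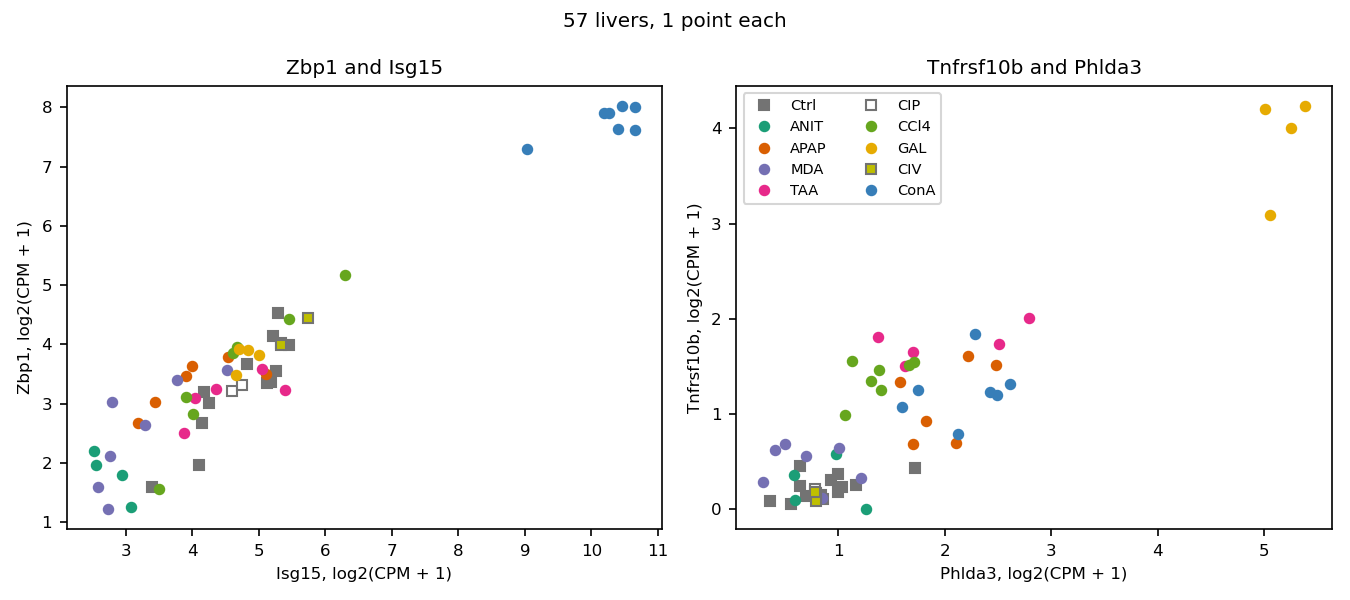
Log2(CPM + 1) of Zbp1 against Isg15 and of Tnfrsf10b against Phlda3, with 1 point per mouse, squares for vehicle mice and circles for treated mice. The 7 ConA mice stand apart at the upper right on the left, the other mice form a band of their own there, and the 4 GAL mice stand apart on the right.

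Mlkl was most like Rnf19b, Tlr2 and Upp1 (r 0.89, 0.89 and 0.88), Fas like Parp9, Gbp11 and Pnp (0.89, 0.88 and 0.87), and Gsdmd like Stat2, Psme1 and Irf1 (0.86, 0.85 and 0.85). Ripk3 was most like Slfn2, Fmnl1 and Lilr4b (0.80, 0.79 and 0.78) and Casp8 like Skil, Tgm1 and F3 (0.81, 0.80 and 0.80). Casp1 had no gene above 0.69, its nearest being Epsti1 (0.69), Ctss (0.66) and Gpr65 (0.65). Of the 30 genes so named, 10 were also among the nearest 3 by Spearman's rho, 22 with a pseudocount of 0.1 CPM and 4 after centring on the group means. Between members the highest Pearson r were Mlkl with Zbp1 (0.87) and Mlkl with Casp4 (0.80), which within groups were 0.38 and 0.14, and by Spearman's rho the highest was Ripk3 with Mlkl (0.72).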

How the data were processed

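Polyadenylated RNA from 57 livers was sequenced from stranded single-end libraries, per the labels' protocols. The authors deposited estimated counts per Ensembl gene, 1 column per mouse. The submitters' processing notes name Salmon 1.6.0, R 4.1.3 and a GRCm39 build, with no role or order, and whether strand was used is not given in the sources used here. Estimated counts were rounded to whole numbers for the tests. Symbols came from a GENCODE table of another build (51482 identifiers matched and 2825 did not), and no coordinates of the files were used.

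Each compound was tested against its route's vehicle with edgeR 4.0.16 in R 4.3.3 (TMM scaling, filterByExpr, quasi-likelihood test, Benjamini-Hochberg adjustment over all genes tested), and called at an adjusted p under 0.05. The ± of a log2 fold change is the SE, and that of a CPM level the SD. Members and lists were chosen with earlier results of these data known. All members are named. From each pathway list the called genes with the largest changes are named, up to 3 in each direction, and for each member the 3 genes most like it. Tnfrsf1a and Casp9 are among these. Alternatives were RLE and library-total scaling, other filters, DESeq2 1.42.0, limma 3.58.1 on log2(CPM + 1), a fit of all mice, all 17 vehicle mice, covariates for mouse number, a replicate block and left-out mice. Pathway lists with the number covariate were added after the data were seen. Procedures were tested on simulated data. No 2 samples held identical values. Whether replicate numbers pair the animals is not given in the labels, and the main tests did not pair them. Deviations of same-numbered mice correlated at r 0.007 to 0.274 for TAA, -0.01 to 0.137 for APAP and -0.148 to 0.092 for MDA. The best match was the own number for 3 of 4 TAA, 3 of 4 APAP, 2 of 2 GAL, 1 of 4 ANIT and 1 of 7 MDA mice. These values do not decide whether the numbers pair the mice.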

Additional observations from a re-analysis of the deposited data

Results flagged for a closer look

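In 6 of the 70 combinations of gene and treated group looked at, 1 mouse lay far from the rest of its group by Dixon's criterion, and chance gives about 1 in 20. Ripk3 was at 4.64 CPM in GAL 7, with the nearest GAL mouse at 2.66 CPM. Gsdmd was at 90.3 CPM in ConA 5, with the nearest at 70.8 CPM, and at 44.7 CPM in MDA 7, with the nearest at 27.5 CPM. Nlrp3 was at 3.99 CPM in TAA 7, with the nearest at 1.07 CPM. Fas was at 31.4 CPM in APAP 1, with the nearest at 12.9 CPM. Tnfrsf10b was at 2.57 CPM in ConA 12, with the nearest at 1.48 CPM, and ConA 12 was also the ConA mouse with the lowest Fas.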

How the results depend on the processing

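Over 1106 values, under the alternatives, of the members tested against the vehicle of their route, 0 called changes reversed, 84 calls were lost and 32 gained, and 58 uncalled values changed sign. The number of members called became 1 for ANIT in the fit of all 57 mice, with the number covariate, and with gavage mice 15 to 18 also left out. It became 2 for MDA under DESeq2 and those 3 settings, 2 for APAP with a mean of at least 1 CPM required, and 4 for CCl4 against all 17 vehicle mice. For GAL it became 8 with the library total, and 3 without a filter or in the fit of all mice. Leaving out 1 mouse gave 2 to 3 members for ANIT, 3 to 7 for APAP, 1 to 1 for MDA, 6 to 8 for TAA, 2 to 3 for CCl4, 1 to 5 for GAL and 5 to 7 for ConA. Over all genes it gave 2540 to 3976, 3844 to 4573, 3943 to 4779, 6585 to 7487, 3015 to 5430, 1617 to 6483 and 3685 to 4989 calls, in the same order. Against all 17 vehicle mice 8014 genes were called for GAL and 9384 for ConA. With the replicate block, which rests on shared numbers only, the members called were 0 for ANIT (1 at an unadjusted p under 0.05 in edgeR), 0 for APAP (5), 0 for MDA (2), 5 for TAA and 2 for GAL, and the genes called 962 for ANIT, 230 for APAP and 2600 for MDA. No paired analysis was possible for CCl4 and ConA because each shares only 1 number with its controls. The cause of these changes was not tested. The saline comparisons rest on 2 control mice each, and Tnfrsf10b on under 10 estimated counts in every vehicle mouse.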
